A study of Mus musculus with 2 samples.

Results

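Collagen chains were compared between uterine stromal cells of control and Hand2-null mice. The members were chosen by name, as probe sets annotated with exactly 1 gene symbol of the form Col, number, a, number. They came to 82 probe sets for 42 genes, out of 45101 probe sets and 18193 named genes on the array. The control array carried pooled RNA of mice with the floxed Hand2 gene (genotype Hand2 Floxed), and the other array carried pooled RNA of Hand2-null mice, whose floxed Hand2 allele had been combined with PRcre, which drives Cre recombinase wherever the progesterone receptor gene is active. Both labels give day 4 of pregnancy and a mixed C57BL/6 and SV129 background that lists Prcre, and both groups were mated to fertile males. Cells were freed from the uterine horns by enzymes and left to attach to plates before RNA extraction. With 1 array per genotype there was no replicate, so no p-value or error of a difference exists and each value sets 1 pool against the other. The pools are stated as 5 mice per genotype in the design text and as 4 in the extraction protocol.

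Collagens are the main proteins of the extracellular matrix. Each molecule is a triple helix of chains, and each type has its own chains, which is why partner chains are read together below. Fibrillar collagens build the rope-like fibrils of connective tissue, basement membrane collagens form sheets under epithelia and around vessels and muscle cells, and the remaining types decorate fibrils, form microfilaments or networks, or span the cell membrane. In the uterus the stroma lays down fibrillar collagen that is remodelled around implantation, and the muscle wall holds collagen as well.

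Signals are MAS5 intensities on a linear scale, and a pair of signals is given with the control array first. A floor was set for each array at the 60th percentile of its non-control probe sets, at 64.2 in the control and 67.5 in the Hand2-null array, and a gene was counted as measured when a probe set reached the floor in at least 1 array. A log2 ratio above 0 stands for more signal in Hand2-null cells, signals under the floor were raised to it, and the fold is then written as at least that value. Each gene is represented by its brightest probe set, ranked by mean log2 signal over both arrays. The targeted gene checked the labels: the Hand2 signal was 1545 in control cells and 38.5, below the floor, in Hand2-null cells. In place of a replicate error, the log2 ratios of probe sets of 1 gene scattered with a standard deviation of 0.21, taken over 4065 genes with several measured probe sets, and the middle 95% of all 10376 measured genes lay between -0.66 and 0.93. Neither includes variation between mice, and precision is limited by the number of arrays. The 0.21 describes single probe sets, and a difference between genes scatters more, so it is no error of such a difference.

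Most measured collagen chains were higher in Hand2-null cells, by less than 2-fold, while a smaller group that includes Col22a1, Col4a6 and Col18a1 was lower. Of the 42 collagen genes 28 were measured, 19 of them higher and 9 lower, against 44.7% of all measured genes higher and 55.3% lower. The median log2 ratio of the 28 genes was 0.30, and that of all measured genes was -0.03. At 1.5-fold or more, 9 collagen genes were higher and 4 lower, where 6.21% and 3.32% of all measured genes were. At 2-fold or more, 1 collagen gene was higher and 1 lower, where 1.99% and 0.742% of all measured genes were. Smooth muscle markers stood at a median of 1.36 in the same comparison, and in pooled bulk RNA a difference in the number of cells of a type and one in RNA per cell cannot be told apart. Within each collagen gene the measured probe sets pointed the same way. Of the collagen genes, 16 had several measured probe sets, and of these 9 were higher by all of them and 7 lower by all. Opposite signs were seen in 0 of the 16, and in 36.6% of the 4065 genes with several measured probe sets. The shares are not alike in ratio size, and small ratios change sign more easily. Where several probe sets reached both floors, the brightest had a median size of 0.36 in collagen genes. Over all genes this was 0.16 where the brightest was under log2 12, and 0.12 above.

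**Figure D1:**
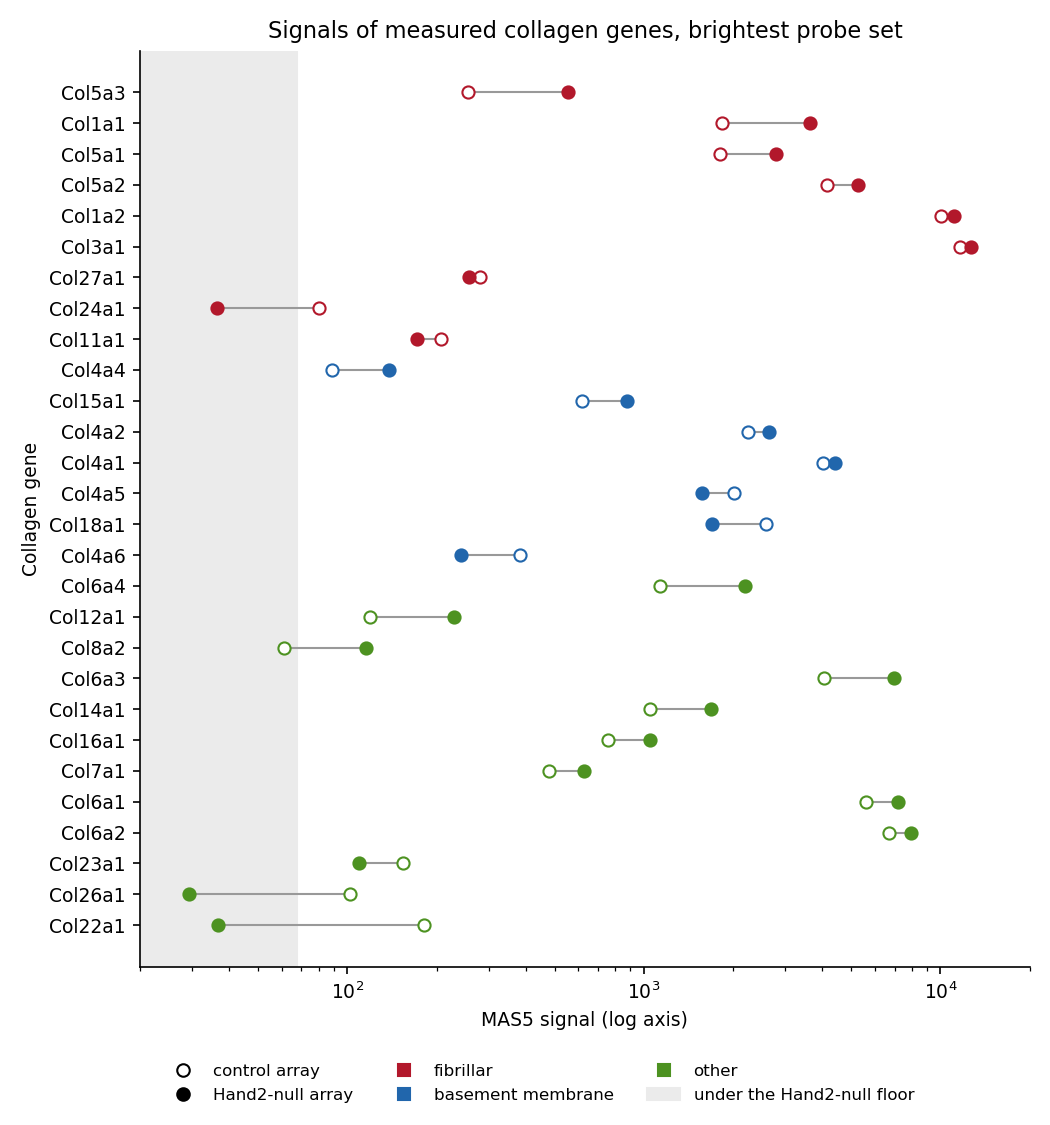
MAS5 signal (log axis) of the brightest probe set of the 28 measured collagen genes in the control array (open circles) and the Hand2-null array (filled circles), 1 array each and no error bars, ordered by log2 ratio within the fibrillar, basement membrane and other classes. The filled circle lies to the right of the open one in 19 genes and to the left in 9, and Col24a1, Col26a1 and Col22a1 lie under the Hand2-null floor of 67.5 (grey) in the Hand2-null array.

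The fibrillar chains split by type. Of 9 measured fibrillar genes 6 were higher, and these were the chains of types I, III and V, while the 3 lower ones were Col11a1, Col24a1 and Col27a1. The class median was 0.15 in log2 ratio. Col1a1 and Col1a2 encode the chains of type I collagen, the most abundant collagen of connective tissue. Col1a1 gave signals of 1828 in the control and 3617 in the Hand2-null array by its brightest probe set, 1423669_at, log2 ratio 0.98, or 1.98-fold, and 1740 and 3148 by its other probe set (log2 ratio 0.86). The brightest probe set thus placed it just short of 2-fold, and the other at 1.81-fold. Col1a2 was higher by 3 probe sets that differed widely in size. Its brightest, 1450857_a_at, had 10014 and 11087 (log2 ratio 0.15), another had 3707 and 6114 (log2 ratio 0.72), and the dimmest had 187 and 457 (log2 ratio 1.29). The 3 probe sets of Col1a2 thus shared a direction and differed in size.

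Col3a1, the chain of type III collagen of pliable tissues such as the uterus and vessel walls, showed the same spread. Its brightest probe set gave signals of 11668 and 12693 (log2 ratio 0.12), and its other probe set 2519 and 3714 (log2 ratio 0.56). Among the 56 probe sets with a mean log2 signal between 13 and 14, which hold the brightest probe sets of Col1a2 and Col3a1, the standard deviation of the log2 ratio was 0.15, against 0.34 among the 162 between 12 and 13 and 0.35 among the 5627 between 8 and 10. The part of this narrower range in the small ratios of Col1a2 and Col3a1 was not tested. With the dimmest measured probe set of each gene in place of the brightest, the fibrillar median was 0.56 and not 0.15.

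Type V collagen is built into type I fibrils and limits their diameter, and all of its chains were higher. Col5a3, on 1419703_at, gave signals of 255 in the control and 555 in the Hand2-null array, log2 ratio 1.12, or 2.18-fold, and was the collagen gene counted as at least 2-fold higher. Its second probe set read 6.68 and 2.57, below both floors, so the value rests on 1 probe set. Col5a1 was higher by 3 probe sets, with 1804 and 2791 by the brightest (log2 ratio 0.63), 773 and 1460 by the next (log2 ratio 0.92), and 70.9 and 186 by the dimmest (log2 ratio 1.39). Col5a2 had 4151 and 5274 (log2 ratio 0.35), and its other probe set gave 0.33. By their brightest probe sets the type V chains ran from 0.35 for Col5a2 to 1.12 for Col5a3. However, the probe sets of Col5a1 alone ran from 0.63 to 1.39, and its dimmest lay above Col5a3. An order of the type V chains is therefore not given.

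Among the lower fibrillar genes, Col11a1 and Col27a1 differed little, and Col24a1 gives only a bound. Col11a1, the chain of a minor fibrillar collagen that seeds fibrils, gave signals of 207 and 172 (log2 ratio -0.26), with a second probe set at -0.28. Col27a1, known from cartilage, had 280 and 258 (log2 ratio -0.12), with a second at -0.16. Col24a1, known from developing bone, read 80.1 in control cells, near the floor, and 36.3 in Hand2-null cells, or at least 1.19-fold lower. Col11a1 differed by little more than the standard deviation between probe sets, and Col27a1 by less. For Col24a1 the bound is set by the floor, and with the floor at the 50th percentile its log2 ratio was -1.14.

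**Figure D2:**
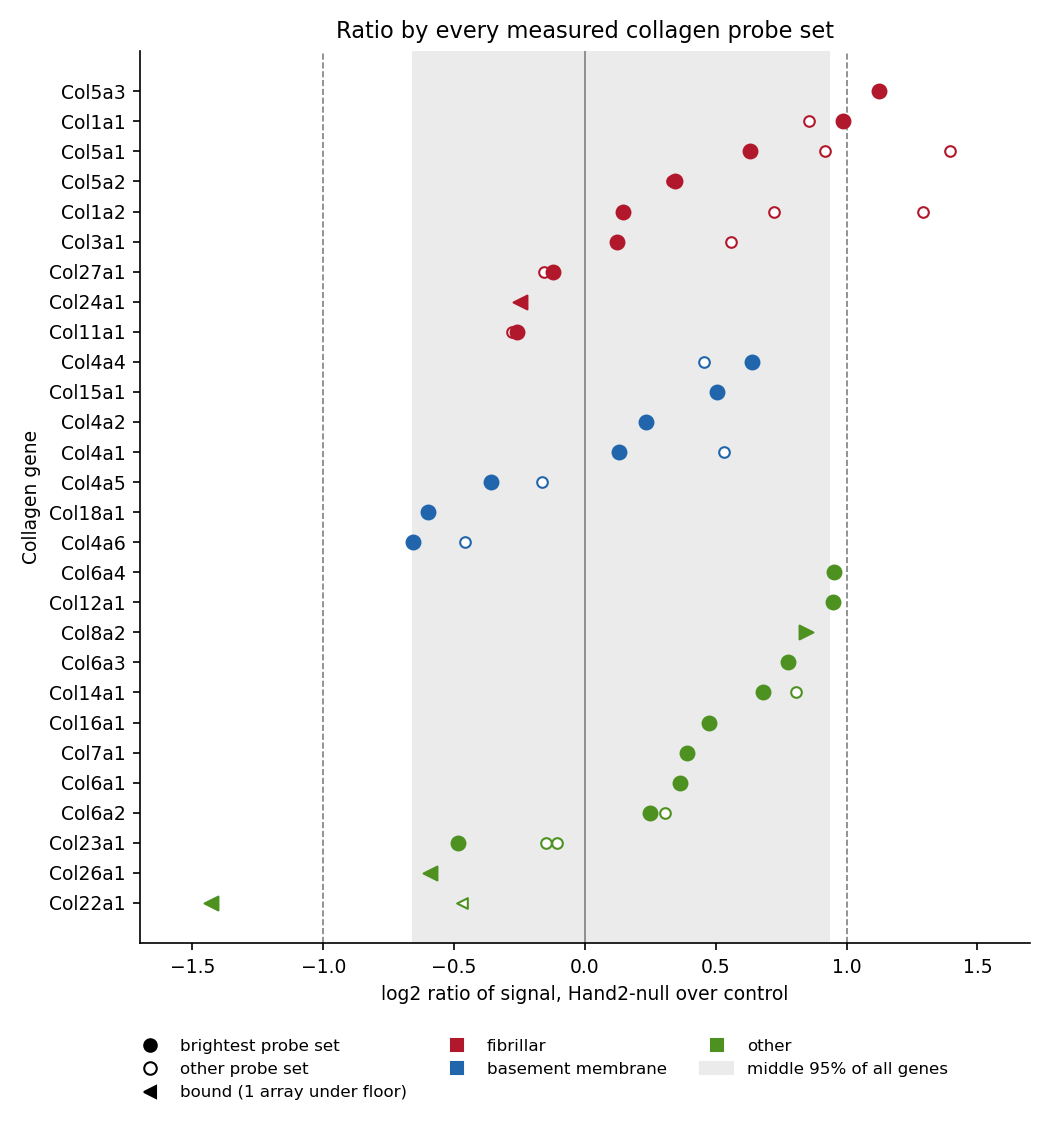
log2 ratio of signal, Hand2-null over control, for every measured probe set of the 28 collagen genes: filled points are the probe set that stands for the gene, open points are its other measured probe sets, triangles are bounds where 1 array was under the floor, the grey band is the middle 95% of all measured genes and dashed lines mark 2-fold. No gene has points on both sides of 0, while Col1a2 spreads from 0.15 to 1.29 and Col5a1 from 0.63 to 1.39.

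Basement membrane collagens were divided, with 4 of 7 measured genes higher, 3 lower and a class median of 0.13 in log2 ratio. Type IV chains are encoded in pairs of neighbouring genes that are read in opposite directions from a shared start region. Where both genes of a pair were measured, their ratios had the same sign. Col4a1 and Col4a2, the chains found in nearly every basement membrane, were both higher. Col4a1 gave signals of 4032 and 4408 (log2 ratio 0.13), and by its other probe set 725 and 1048 (log2 ratio 0.53). Col4a2 had 2246 and 2641 (log2 ratio 0.23). By the brightest probe set Col4a1 thus differed by less than 0.21, and Col4a2, on 1 measured probe set, by little more. Col4a5 and Col4a6, which join in one molecule in the basement membranes of smooth muscle and some epithelia, were both lower. Col4a5 had 2015 and 1570 (log2 ratio -0.36), with a second probe set at -0.17, and Col4a6 had 381 and 241, log2 ratio -0.66, or 1.58-fold lower, with a second at -0.46. The brightest probe sets of the Col4a1 and Col4a2 pair thus stood at 0.13 and 0.23. Those of the Col4a5 and Col4a6 pair had the opposite sign, at -0.36 and -0.66.

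The start regions of both pairs are shown because the chains of a pair had ratios of the same sign. The neighbours Col3a1 and Col5a2, and Col6a1 and Col6a2, also shared a sign. The part of a shared start region in these ratios was not tested. The windows run from 250 bases before to 50 bases after the start of each gene, 5′ to 3′ on the strand of the gene, from RefSeq for GRCm38.p6. Capitals mark CANNTG, the E-box motif that basic helix-loop-helix factors such as HAND2 bind.
Col4a1 (chr8:11312777-11313076, minus strand): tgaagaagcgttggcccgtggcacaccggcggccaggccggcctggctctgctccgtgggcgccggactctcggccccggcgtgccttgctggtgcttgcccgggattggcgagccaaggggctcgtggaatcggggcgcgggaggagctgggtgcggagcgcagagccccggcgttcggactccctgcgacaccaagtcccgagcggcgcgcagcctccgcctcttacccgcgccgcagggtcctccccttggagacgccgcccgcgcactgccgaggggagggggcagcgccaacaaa
Col4a2 (chr8:11312555-11312854, plus strand): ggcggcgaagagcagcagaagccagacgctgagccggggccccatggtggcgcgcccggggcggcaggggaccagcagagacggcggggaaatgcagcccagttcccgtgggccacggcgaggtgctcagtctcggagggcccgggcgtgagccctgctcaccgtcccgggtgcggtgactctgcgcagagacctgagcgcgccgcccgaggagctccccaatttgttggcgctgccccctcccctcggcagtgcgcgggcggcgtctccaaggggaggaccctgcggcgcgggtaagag
Col4a5 (chrX:141475169-141475468, plus strand): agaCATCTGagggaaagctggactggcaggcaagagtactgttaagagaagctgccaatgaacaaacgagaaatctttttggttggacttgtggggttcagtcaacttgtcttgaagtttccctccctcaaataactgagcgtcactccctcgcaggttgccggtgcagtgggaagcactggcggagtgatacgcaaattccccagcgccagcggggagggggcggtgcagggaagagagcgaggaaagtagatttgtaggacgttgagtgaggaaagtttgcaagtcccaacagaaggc
Col4a6 (chrX:141474027-141474326, minus strand): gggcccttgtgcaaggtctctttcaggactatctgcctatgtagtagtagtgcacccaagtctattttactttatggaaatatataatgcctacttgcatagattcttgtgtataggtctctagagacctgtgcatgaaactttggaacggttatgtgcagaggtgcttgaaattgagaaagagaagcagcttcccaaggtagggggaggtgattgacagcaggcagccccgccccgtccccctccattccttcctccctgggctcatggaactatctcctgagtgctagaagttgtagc
The starts of Col4a1 and Col4a2 lie 21 bases apart on opposite strands, so their windows overlap, and those of Col4a5 and Col4a6 lie 1343 bases apart. The windows of Col4a1, Col4a2 and Col4a6 hold no CANNTG, and that of Col4a5 holds 1, spelled CATCTG. The window of Col5a3, the collagen gene at least 2-fold higher, is shown beside them and holds 1 CANNTG, spelled CAGCTG.
Col5a3 (chr9:20815018-20815317, minus strand): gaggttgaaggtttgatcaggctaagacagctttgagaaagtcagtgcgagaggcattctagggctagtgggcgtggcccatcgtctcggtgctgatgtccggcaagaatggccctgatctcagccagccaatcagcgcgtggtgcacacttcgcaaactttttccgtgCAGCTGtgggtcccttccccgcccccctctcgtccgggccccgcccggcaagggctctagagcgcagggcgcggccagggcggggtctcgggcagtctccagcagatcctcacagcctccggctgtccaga
RefSeq windows were found for 33 of the 42 genes and for 22 of the 28 measured ones. Of the 24 windows of measured collagen genes, 10 hold CANNTG, where 72.3% of all 32851 windows of this length do, and 2 hold CATCTG or its reverse complement, where 17.2% do. CArG boxes, the motif of serum response factor in smooth muscle genes, were found in 1 of the 24, that of Col6a4, and in 1.63% of all windows. A match is a run of letters and no measured binding site.

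The remaining type IV pair was near the floor. Col4a4 gave signals of 88.6 and 138 (log2 ratio 0.64), with a second measured probe set at 0.45, and both probe sets of Col4a3 were under the floor in both arrays. The remaining basement membrane types moved in opposite directions. Col18a1, the chain of type XVIII collagen whose end fragment is the angiogenesis inhibitor endostatin, had 2578 in the control and 1701 in the Hand2-null array, log2 ratio -0.60, or 1.52-fold lower, and its other probe set had 1690 and 1111 (log2 ratio -0.61). Its 2 probe sets gave nearly the same ratio at different signals. Col15a1, the related type XV chain found beside basement membranes of muscle and capillaries, had 618 and 877, log2 ratio 0.51, or 1.42-fold higher. These relatives thus had ratios of opposite sign, that of Col15a1 on 1 measured probe set. With the floor at the 75th percentile, which leaves out Col4a4, the basement membrane median was -0.12.

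Type VI collagen forms beaded microfilaments that link cells to the surrounding matrix, and 4 of 4 measured type VI genes were higher. Their median was 0.57 in log2 ratio. Col6a3, the chain with the long globular end, gave signals of 4059 and 6960, log2 ratio 0.78, or 1.71-fold. Its partners in the molecule were higher by less: Col6a1 had 5613 and 7214 (log2 ratio 0.36), and Col6a2 had 6685 and 7949 (log2 ratio 0.25), with a second probe set at 0.31. Col6a1 and Col6a2 are neighbours in the genome, and Col6a3 lies elsewhere. Col6a4, a chain thought able to take the place of Col6a3 in the molecule, had 1131 and 2190, log2 ratio 0.95, or 1.94-fold. Its second probe set was under the floor in both arrays, as was the probe set of Col6a5.

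Fibril-associated collagens sit on the surface of type I fibrils and tie them to other matrix proteins, and 3 of their 4 measured genes were higher. Col12a1 gave signals of 119 and 229, log2 ratio 0.95, or 1.93-fold, while its 3 other probe sets were under the floor in both arrays. Col14a1, of the related type XIV, had 1049 and 1681 (log2 ratio 0.68), and a second probe set with 421 and 736 gave 0.81. Col16a1 had 757 and 1052 (log2 ratio 0.47). Type XII and XIV collagens share a role in tissues under tension, and their brightest probe sets were at 0.95 and 0.68.

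Col22a1, known from the junction of muscle and tendon, was the only collagen gene counted as at least 2-fold lower. Its brightest probe set, 1453084_s_at, read 182 in control cells and 36.7, below the floor, in Hand2-null cells, or at least 2.69-fold lower. A second probe set had 93.5 and 36.4, or a log2 ratio of -0.47 against the floor, and the last read 51.0 and 26.5, below both floors. Both measured probe sets were lower in the Hand2-null array, and no direction is given for the last. The 2-fold call was lost with the mean over probe sets, at -0.95, and without _x_at, _s_at and _a_at probe sets, at -0.47. It was also lost with the dimmest measured probe set, at -0.47, and with the floor at the 75th percentile, at -0.14. Each of these values rests on bounds, because the Hand2-null signals were raised to the floor. With no floor, and with the floor at the 50th percentile, the log2 ratio was -2.31.

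The other types held single measured genes. Col8a2, of the short-chain collagen that forms hexagonal networks under endothelia, read 60.9 in control cells, below the floor, and 115 in Hand2-null cells, or at least 1.79-fold higher, and Col7a1, the chain of the fibrils that anchor basement membranes, had 479 and 628 (log2 ratio 0.39). Col23a1, a membrane-spanning collagen, was lower by 3 probe sets, with 154 and 110 by the brightest (log2 ratio -0.49), and ratios of -0.15 and -0.11 by the others. Col26a1, known from testis and ovary, had 102 and 29.2, or at least 1.51-fold lower. The genes outside the fibrillar and basement membrane classes, with types VI, VII, VIII, XII, XIV, XVI, XXII, XXIII and XXVI, came to 12 measured. Of these 9 were higher and 3 lower, and the median was 0.43 in log2 ratio.

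The 14 collagen genes not measured were Col2a1, Col11a2, Col4a3, Col6a5, Col8a1, Col9a1, Col9a2, Col9a3, Col10a1, Col13a1, Col17a1, Col19a1, Col20a1 and Col25a1. Their 26 probe sets gave signals of at most 43.1 in the control and 40.6 in the Hand2-null array, so no direction is given. They include the cartilage collagens of types II, IX and X, and Col17a1 of the hemidesmosomes of stratified epithelia. Of all 82 probe sets 47 were measured, 42 of them at or above the floor in both arrays, 4 in the control array alone and 1 in the Hand2-null array alone.

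**Figure D3:**
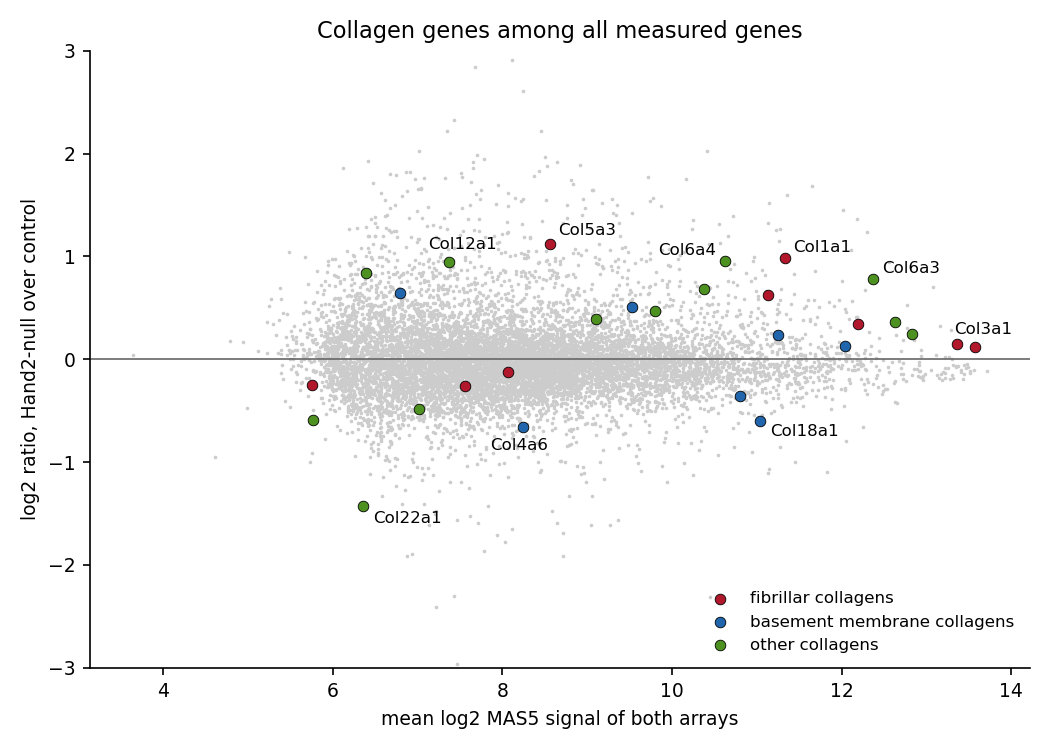
log2 ratio of signal (Hand2-null over control) against the mean log2 MAS5 signal of both arrays for all 10376 measured genes (grey) and the 28 collagen genes (coloured by class), 3 genes lying outside the plotted range. The collagen points run from -1.43 for Col22a1 to 1.12 for Col5a3, and those at the right edge, Col1a2 and Col3a1, lie close to 0.

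Genes that make and process collagen were also mostly higher, by smaller ratios. Of 26 measured genes of synthesis and processing 22 were higher and 4 lower, the median was 0.18 in log2 ratio, and 1 gene was at least 2-fold higher, where 44.7% of all measured genes were higher and 1.99% at least 2-fold higher. The 2-fold count is thus near the share of all genes. Adamts3, a protease that cuts the amino end off procollagen, gave signals of 73.5, near the floor, and 151 (log2 ratio 1.04). Pcolce2, an enhancer of the protease that removes the carboxyl end, was at 0.96, and Lox, the lysyl oxidase that crosslinks collagen and elastin, had 429 and 792 (log2 ratio 0.88) by its brightest probe set and 0.95 by the other. Creb3l1, a transcription factor of the secretory pathway known to act on type I collagen genes in bone, was at 0.79. The general folding enzymes differed little: Ppib, a prolyl isomerase, was at -0.07, P4hb, the shared subunit of prolyl hydroxylase, at -0.06, Crtap, a partner of the prolyl hydroxylases that act on collagen, at -0.02 and P3h2, one of those enzymes, at -0.01, and these were the 4 lower genes.

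Of 14 measured collagen receptors and turnover genes 11 were higher and 3 lower, against 44.7% and 55.3% of all measured genes, and the median was 0.26 in log2 ratio. Ctsk, cathepsin K, a protease that cuts the collagen helix, gave signals of 497 and 1025, log2 ratio 1.04, or 2.06-fold. Itga1, the collagen-binding integrin subunit, was at 0.72, Mmp14, the membrane-bound collagenase, had 1975 and 3180 (log2 ratio 0.69), and Timp2, an inhibitor that also helps MMP14 activate MMP2, was at 0.57. Pepd, the peptidase that frees proline from collagen fragments, had 312 and 158, a log2 ratio of -0.98 on 1 probe set, and the lower genes also held Mmp2, a gelatinase, at -0.24 and Timp1 at -0.21.

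Markers of other cells of the uterine wall moved beside the collagens. Smooth muscle markers were higher in 16 of 16 measured genes and at least 2-fold higher in 12, and their median was 1.36 in log2 ratio. Their summed signal went from 31412.5 to 67056, 14 of the 16 reached the floor in the control array, and Cnn1, the smooth muscle calponin, was at 2.02. Of 8 mesothelial markers 7 were higher, but 3 of the 8 reached the floor in the control array, so that 5 of the ratios are bounds. Their median was 0.80, with a summed signal of 1428 and 2325 and Upk3b at 1.42, and Muc16 was under the floor in both arrays. Most of the control sum came from Krt19 (498 and 966) and Wt1 (633 and 541). Krt19 is also on the epithelial list and Wt1 on the stromal list. Stromal markers were lower in 9 of 12, with a median of -0.22, summed signals of 36287 and 36986 and Hoxa11 at -0.68. The 3 higher ones were Lum at 0.68, as large in size as Hoxa11, Dcn at 0.28 and Pdgfrb at 0.07. Pgr and Esr1, counted as lower at -0.21 and -0.03, reached 0.16 and 0.42 by another probe set. Of 14 epithelial markers 10 were higher, the median was 0.18, with summed signals of 9389 and 10792 and Ltf at 1.49. Endothelial markers were lower in 7 of 10, with a median of -0.24 and summed signals of 3916 and 3391. Of these, Cldn5 at 1.55 was the 1 at least 2-fold higher, and Cdh5 at -1.11 the 1 at least 2-fold lower. Pericyte markers had a median of 0.09, with 3 of 6 higher, summed signals of 5993 and 4893, Cspg4 at 0.79 and Rgs5 at -0.48. Immune markers had a median of 0.12, with 3 of 5 higher, summed signals of 7105.04 and 7114.76, Adgre1 at 0.23, and Cd3e, Itgam and Ncr1 under the floor in both arrays. The 3 Schwann cell markers on the array, Cdh19, S100b and Sox10, were under the floor in both arrays. Most smooth muscle, mesothelial and epithelial markers were thus higher, as most collagens were, and so were 3 of 5 immune markers. Most stromal and endothelial markers were lower, as were 9 collagens, among them Col4a5, Col4a6, Col18a1 and Col22a1. The part of any of these cell types in the collagen values was not tested.

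**Figure D4:**
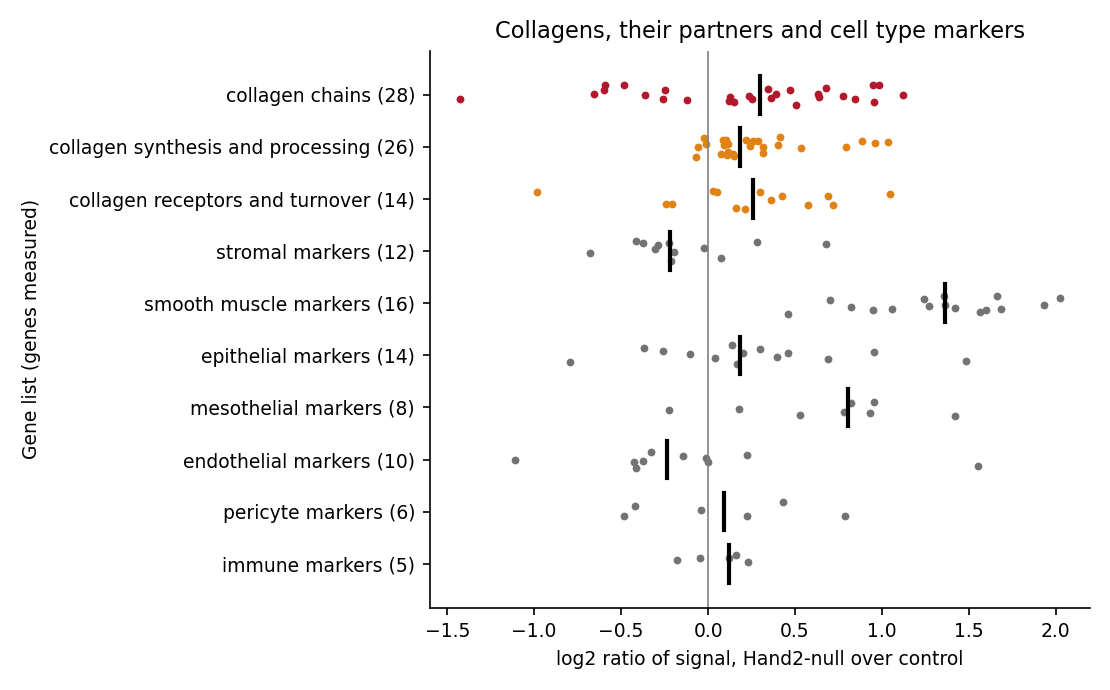
log2 ratio of signal (Hand2-null over control) of each measured gene (points) in the collagen chains, 2 lists of collagen partners and 7 lists of cell type markers, with the number of genes in brackets and the median as a black bar. The collagen median of 0.30 lies between the smooth muscle median of 1.36 and the stromal median of -0.22, and the collagen points spread over both sides of 0.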

How the data were processed

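Total RNA of uterine stromal cells, pooled by genotype, was hybridized to 1 Affymetrix mouse array for each of the control and Hand2-null groups, per the labels' protocols and the design text. The deposited numbers are intensity on a linear scale. Per the submitters' processing notes the authors used MAS5 and version 1 of Affymetrix Expression Console. A mean trimmed by 2% on either side came to 150.001 for both arrays, so each had been scaled to one mean. A genome build and further normalization are not given in the sources used here. Because mismatch probes are subtracted in MAS5, dim probe sets give unsteady ratios.

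The 64 control probe sets were removed from the 45101. Of the rest, 34945 carried 1 gene symbol in the annotation of the platform, 932 more than 1 and 9160 no listed symbol. The log2 ratio of Hand2-null over control, the floor, the measured genes and the probe set for each gene were as given above, and 2-fold was the threshold for a count. No test was made with 1 array per group; counts and medians are set beside those of all measured genes. The members and gene lists were chosen with earlier results of these data known. Every measured collagen gene is named, with the 4 genes of each partner list with the largest log2 ratio in each direction. Of each marker list the gene with the largest ratio in size is named. Marker genes under the floor, those shared between lists and the higher stromal markers are also named. So are the lowest endothelial and pericyte markers, and markers with measured probe sets of opposite sign. Of 36 synthesis and processing genes listed 32 were on the array and 26 measured, and of 20 receptors and turnover genes 19 and 14.

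Alternatives were median centring, quantile normalization, loess (span 0.3), and no floor or one at percentile 50 or 75. Further ones were adding the floor to every signal as a pseudo-signal and averaging the probe sets of a gene. The last were dropping probe sets whose ID ends in _x_at, _s_at or _a_at, the dimmest measured probe set, and thresholds of 1.5-fold and 3-fold. The code was run on simulated arrays with the same scatter at all signals, which gives no measure of error in these data. Values were computed with pandas 2.3.3 and numpy 2.4.6 in Python 3.11.15, trimmed means with scipy 1.17.1, loess with statsmodels 0.14.6 and plots with matplotlib 3.10.9.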

Additional observations from a re-analysis of the deposited data

How the results depend on the processing

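All 28 measured collagen genes kept their sign under each of the 10 alternative settings of scaling, floor and probe set that gave them a value. This is no replication, because every setting reuses the same 2 arrays. No collagen gene had measured probe sets of opposite sign, so the choice of probe set could not change a sign. The count of 19 higher collagen genes was within 1.5 times under these settings except with no floor, where all 42 genes entered and 29 were higher. The single gene at least 2-fold higher became 2 after median centring and after loess, since Col1a1 then passed, 3 with the dimmest measured probe set, 6 with no floor and 0 with a pseudo-signal. The single gene at least 2-fold lower became 3 with a 50th percentile floor and 5 with no floor. The count was 0 with the floor at the 75th percentile, the mean over probe sets, the dimmest probe set, or without _x_at, _s_at and _a_at probe sets. The background moved too: of all genes, 206 higher and 77 lower of 10376 became 1646 and 1626 of 18193 with no floor (9.05% and 8.94%), 297 and 114 of 11777 when the floor was percentile 50 (2.52% and 0.968%), 117 and 45 of 7489 at the 75th, 117 and 40 of 10376 with a pseudo-signal, and 198 and 75 with the dimmest probe set. At 1.5-fold the counts were 9 and 4, and at 3-fold 0 and 0. The fibrillar median of 0.15 was 0.56 with the dimmest probe set. Without _x_at, _s_at and _a_at probe sets it was also 0.56, and the median of the other types was 0.78. The basement membrane median was -0.12 with the floor at the 75th percentile. Of 272 single-gene values under an alternative, 25 moved by more than 0.21. The causes were not tested. No replicate could be left out and no paired analysis was possible because each group had 1 array.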

Other observations

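The ratio depended on which probe set of a collagen gene was read, and values over all genes are given here without an explanation. Among genes with several probe sets that reached both floors and a brightest probe set of at least 12 in mean log2 signal, the dimmest probe set had the larger log2 ratio in size in 70 of 100, with a median size of 0.20 against 0.12 for the brightest. Among genes with a dimmer brightest probe set this held in 1975 of 3565, with medians of 0.20 and 0.16. Of the 5 collagen genes in the bright group, Col1a2, Col3a1, Col4a1, Col5a2 and Col6a2, it held in 4, with medians of 0.53 and 0.15.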
